A study of Mus musculus with 18 samples.

Results

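The genes described here encode the machinery of oxidative phosphorylation in mitochondria. They were chosen by name, as genes with a single annotated symbol that starts with Nduf (complex I), Sdh (complex II), Uqcr (complex III), Cox4 to Cox8 (complex IV) or Atp5 (complex V, the ATP synthase). A gene also needed a probe set, the group of array probes that reports a transcript, above log2 4 in at least 3 of the 18 arrays, and it stood as its brightest probe set. The symbols covered 87 genes, of which 81 passed, against 7583 genes that passed in the whole series. There were 39 genes for complex I, 7 for complex II, 8 for complex III, 10 for complex IV and 17 for complex V. The name covers more than the subunits of the chain, since 8 of the 81 genes encode assembly factors, namely Ndufaf1, Ndufaf3, Ndufaf4, Ndufaf5, Ndufaf7, Sdhaf1, Sdhaf2 and Sdhaf4, and Cox7a2l encodes a factor that joins complexes into supercomplexes. Ndufa4 stands with complex I by its symbol, although its product is now regarded as a subunit of complex IV. The 13 subunits encoded by mitochondrial DNA had 0 genes on the array under their symbols.

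The series asked how loss of CaMKIV, a calcium and calmodulin dependent kinase encoded by Camk4, changes the transcriptional response of the striatum to cocaine. Expression was measured with 1 Affymetrix array per animal in striatal tissue that took in the nucleus accumbens, from single-caged littermates aged 10 to 20 weeks and killed 1 hour after injection. There were 6 mutant mice given 25 mg/kg cocaine, 3 mutant mice given saline, 6 control mice given 25 mg/kg cocaine and 3 control mice given saline. The titles call the animals only mutant or control, and neither the allele nor a promoter that may drive it is stated in the sources used here. The titles also number the animals in Roman numerals (6 cocaine animals, 3 per genotype) or in Arabic numerals (12 animals, 3 per group). All saline animals are Arabic-numbered, and what the numbering stands for is not stated.

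The respiratory chain passes electrons from NADH through complex I, and from succinate through complex II, to ubiquinone, complex III, cytochrome c and then complex IV, which reduces oxygen. Complexes I, III and IV pump protons out of the matrix, and complex V uses their return to make ATP. Neurons rely on this supply to restore ion gradients after firing, and their chain subunits are encoded mostly in the nucleus, where the factors NRF1 and NRF2 (GABP, an ETS protein) are known regulators of many of these genes.

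Every value is a log2 GCRMA expression value or a difference between such values. Differences come from 1 limma model over all 18 arrays with group and numbering series as terms, and an adjusted p under 0.05 over all 12674 probe sets kept was the threshold. A gene that passed it is called. The groups rest on the titles, since the description lines went against them (0 of 18 matched) and the protocol text gives cocaine for all 18 animals. Fos, an immediate early gene, averaged 10.05 ± 1.42 in cocaine-treated mutant mice against 4.75 ± 0.09 in saline-treated mutant mice, and 10.62 ± 0.71 in cocaine-treated control mice against 5.86 ± 0.78 in saline-treated control mice (SD). Camk4 itself, on its brighter probe set, lay between 6.85 and 7.69 in the 9 mutant arrays and between 7.52 and 7.76 in the 9 control arrays. Its mutant minus control difference averaged over treatments was −0.37 ± 0.09 (SE, adjusted p = 0.611), so the array did not separate the genotypes at this gene beyond the threshold, and where its probes lie relative to the mutation is unknown. Ppp1r1b, Penk and Drd2, markers of striatal medium spiny neurons, were bright in every group, with means of 13.35, 13.86 and 11.60 in cocaine-treated mutant mice. In bulk tissue, fewer cells of a type and less RNA per cell cannot be told apart. Mutant cocaine replicate 5, a Roman-numbered animal, stood apart with an actin 3′ minus 5′ difference, a sign of RNA degradation, of 3.59, against group means of 1.73 to 2.43 over the other cocaine and saline groups split by numbering. It was the highest or the lowest array of its group for 65.4% of the 81 genes and for 60.5% of all probe sets. Values without it are given for some named genes, and a value given once was not always stable without it.

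The genes were expressed at levels well above the floor in striatum, and varied little between animals. The mean level over the 18 arrays had a median of 12.1 over the 81 genes (range 5.45 to 14.4), and 70 of the 81 lay above log2 10. The median residual SD between animals within groups was 0.0786, with a range from 0.036 to 0.36 (Ndufs5, an accessory subunit of complex I), against 0.159 for all probe sets and 0.099 for the 2646 probe sets above log2 10. Signals of different probe sets are not comparable as levels, so the following values are to be read across groups and not between genes. Cox6a1, the common form of a cytochrome oxidase subunit, averaged 14.41 ± 0.06 in mutant cocaine (n = 6), 14.38 ± 0.07 in mutant saline (n = 3), 14.34 ± 0.06 in control cocaine (n = 6) and 14.33 ± 0.12 in control saline mice (n = 3, SD). Atp5h, a subunit of the ATP synthase stalk, averaged 13.87 ± 0.10 in mutant cocaine, 13.77 ± 0.04 in mutant saline, 13.81 ± 0.06 in control cocaine and 13.78 ± 0.04 in control saline mice. Ndufa1, an X-linked accessory subunit of complex I, averaged 13.41 ± 0.04 in mutant cocaine mice, 13.35 ± 0.07 in mutant saline mice, 13.40 ± 0.03 in control cocaine mice and 13.40 ± 0.05 in control saline mice. The highest and lowest group means differed by 0.109 for Atp5h, 0.082 for Cox6a1 and 0.058 for Ndufa1 on the log2 scale. Uqcrb and Uqcrc2 of complex III, Sdhb and Sdha of complex II, Ndufs8 of complex I, Cox4i1 of complex IV and Atp5g3 of complex V, the other genes of highest signal in their complexes, had such gaps between 0.018 (Ndufs8) and 0.117 (Sdhb).

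Summarised per array as the mean over genes of each gene's deviation from its own 18-array mean, the 5 complexes differed little between groups. For complex I the means were 0.007 ± 0.031 in mutant cocaine, 0.019 ± 0.028 in mutant saline, −0.016 ± 0.024 in control cocaine and 0 ± 0.021 in control saline mice (SD). For complex V they were 0.012 ± 0.029 in mutant cocaine, 0.004 ± 0.027 in mutant saline, −0.009 ± 0.023 in control cocaine and −0.01 ± 0.0076 in control saline mice. The animals of all 4 groups overlapped in both complexes. For complex III they were 0.011 ± 0.034 in mutant cocaine, 0.033 ± 0.014 in mutant saline, −0.019 ± 0.042 in control cocaine and −0.017 ± 0.012 in control saline mice. After saline the complex III arrays did not overlap, at 0.017, 0.039 and 0.044 in mutant mice against −0.019, −0.027 and −0.003 in control mice, and after cocaine they did. The mean over all 81 genes was likewise 0.016, 0.016 and 0.036 in mutant saline arrays against −0.016, 0.001 and −0.008 in control saline arrays. Of all single probe sets, 11.7% did not overlap in this comparison, 911 higher and 578 lower in mutant mice. How often means over sets of genes separate was not computed. Complexes II and IV had the widest gaps between group means and are taken up with the comparisons they belong to.

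**Figure D1:**
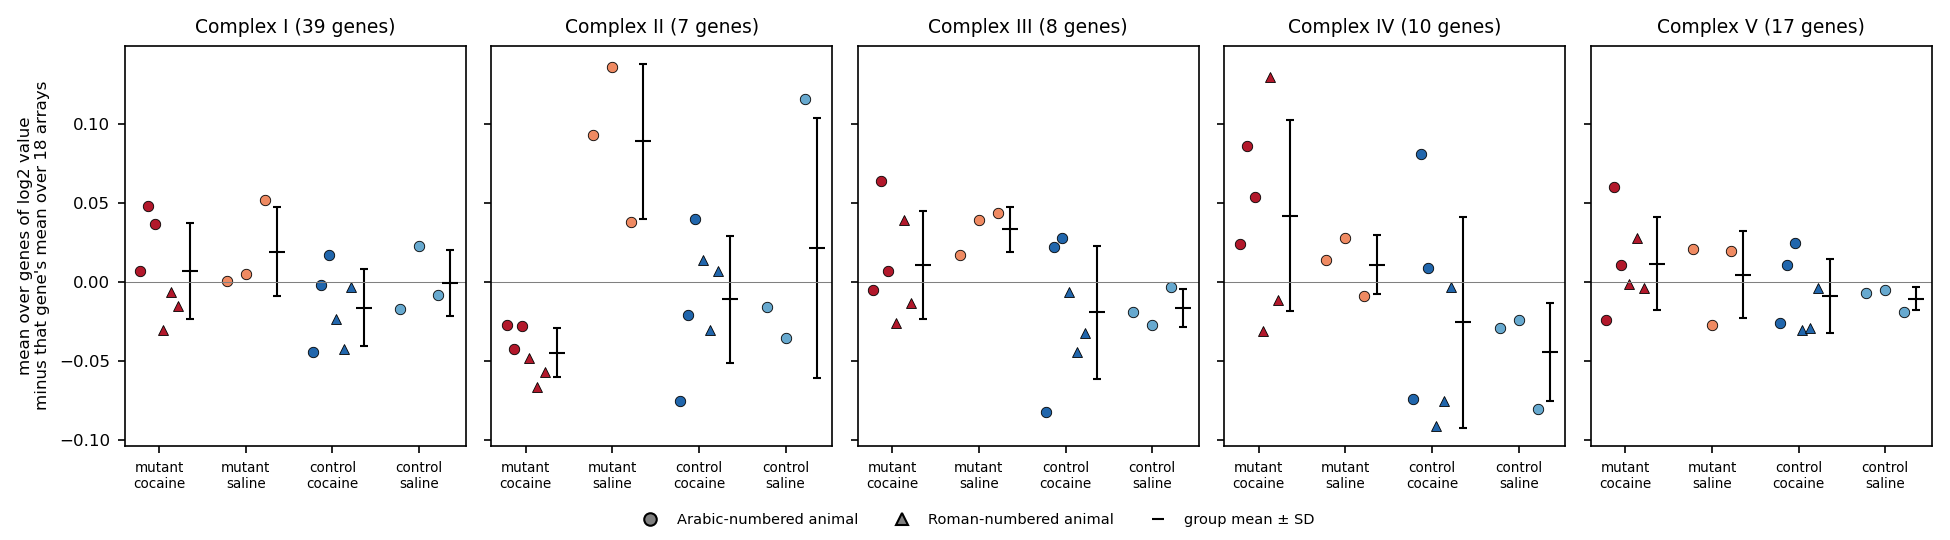
Mean level of each respiratory complex per array, on the log2 scale relative to each gene's mean over 18 arrays, for mutant cocaine, mutant saline, control cocaine and control saline animals. Circles are Arabic-numbered and triangles Roman-numbered animals, and bars give the group mean and SD. In complex II the 6 mutant cocaine arrays lie between −0.066 and −0.027, below the 3 mutant saline arrays at 0.038 to 0.136.

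Cytochrome oxidase exists in isoforms that differ between tissues, and for 5 subunits with such forms the common form was bright on the striatal arrays and the tissue forms dim. Cox4i1, Cox6a1, Cox6b1, Cox7a2 and Cox8a passed the filter in 18 of 18 arrays. Of the tissue-restricted forms, Cox4i2 (lung) lay between 2.09 and 2.22, Cox6b2 (testis) between 2.94 and 3.87, Cox7a1 (heart and muscle) between 3.18 and 3.52, Cox8b (heart and muscle) between 2.54 and 2.71 and Cox8c (testis) between 1.43 and 1.45 over the 18 arrays, all under log2 4. Those 5 genes and Cox7c, whose probe set lay between 2.48 and 3.01, are the 6 of 87 that did not pass. Cox7c encodes a common subunit, so a signal under log2 4 is a statement about a probe set and not about the gene. Cox6a2, the heart and muscle form of subunit VIa, passed at a dim 4.83 to 5.88. It averaged 5.60 ± 0.23 in mutant cocaine mice and 5.45 ± 0.13 in mutant saline mice, and 5.37 ± 0.36 in control cocaine mice and 5.32 ± 0.04 in control saline mice. Its cocaine minus saline difference averaged over genotypes was 0.27 ± 0.12 (SE, limma unadjusted p = 0.0404, adjusted p = 0.859) and did not pass the threshold. Through the series term this difference comes from Arabic-numbered arrays, while the cocaine means just given include Roman-numbered ones. GCRMA compresses differences near the floor, so a change of a dim gene would be understated.

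**Figure D2:**
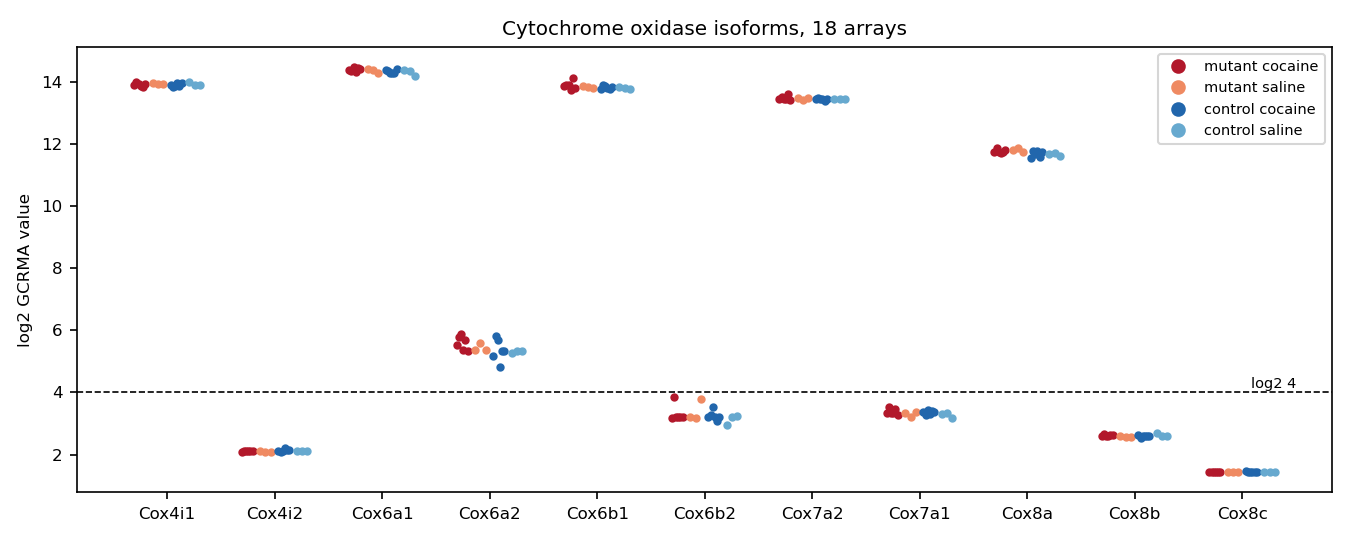
Log2 GCRMA values of cytochrome oxidase isoforms, 1 point per array, with the common and tissue-restricted forms next to each other and a dashed line at log2 4. Cox4i1, Cox6a1, Cox6b1, Cox7a2 and Cox8a lie far above the line in all 18 arrays, Cox6a2 lies between 4.83 and 5.88, and Cox4i2, Cox6b2, Cox7a1, Cox8b and Cox8c lie below the line.

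The promoters of a few genes are printed because they show which known regulator sequences these genes carry and because CaMKIV acts on CREB, which binds TGACGTCA. Cox6a1 holds both an NRF1 and an ETS sequence, Sdhd and Cox8a hold ETS sequences and are described at length in the cocaine and genotype comparisons, Uqcrc1 holds an NRF1 sequence and differed between numbering series, Uqcrfs1 holds the CREB sequence, and Cox8b is a muscle form below the floor. The sequences are from RefSeq (GRCm38.p6), 250 bases before to 50 bases after the annotated start, 5′ to 3′ on the gene's strand, with matches in capitals: the palindrome of NRF1 in Cox6a1 and Uqcrc1, CCGGAAG or its reverse complement for ETS proteins such as GABP, TGACGTCA for CREB and TATAAA for the TATA box. Cox6a1 lies on the minus strand at chr5:115348909-115349208, Sdhd on the minus strand at chr9:50603800-50604099, Cox8a on the minus strand at chr19:7217567-7217866, Uqcrc1 on the plus strand at chr9:108936398-108936697, Uqcrfs1 on the minus strand at chr13:30545267-30545566 and Cox8b on the minus strand at chr7:140900397-140900696.
Cox6a1: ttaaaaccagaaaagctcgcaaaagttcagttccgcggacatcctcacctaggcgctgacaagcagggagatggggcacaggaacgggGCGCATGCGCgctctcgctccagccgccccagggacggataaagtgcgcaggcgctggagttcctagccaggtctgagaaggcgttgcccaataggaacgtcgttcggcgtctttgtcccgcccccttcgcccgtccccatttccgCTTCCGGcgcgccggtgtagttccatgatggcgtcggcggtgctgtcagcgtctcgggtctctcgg
Sdhd: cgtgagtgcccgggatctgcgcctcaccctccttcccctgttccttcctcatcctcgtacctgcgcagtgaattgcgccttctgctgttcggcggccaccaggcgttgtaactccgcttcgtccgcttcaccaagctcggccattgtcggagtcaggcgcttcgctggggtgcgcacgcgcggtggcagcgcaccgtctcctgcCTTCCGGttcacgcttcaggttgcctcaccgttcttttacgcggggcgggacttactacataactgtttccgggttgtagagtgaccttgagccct
Cox8a: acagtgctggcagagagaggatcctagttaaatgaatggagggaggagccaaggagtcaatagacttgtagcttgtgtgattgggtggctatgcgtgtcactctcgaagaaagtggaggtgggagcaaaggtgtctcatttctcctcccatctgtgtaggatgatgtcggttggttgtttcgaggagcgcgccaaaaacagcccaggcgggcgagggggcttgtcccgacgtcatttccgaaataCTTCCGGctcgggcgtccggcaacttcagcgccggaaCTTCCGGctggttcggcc
Uqcrc1: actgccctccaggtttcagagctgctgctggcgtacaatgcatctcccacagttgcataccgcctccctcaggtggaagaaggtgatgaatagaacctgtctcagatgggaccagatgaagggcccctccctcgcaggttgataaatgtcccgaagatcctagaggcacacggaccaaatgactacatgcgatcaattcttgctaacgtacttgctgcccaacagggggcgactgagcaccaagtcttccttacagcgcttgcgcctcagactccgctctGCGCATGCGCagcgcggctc
Uqcrfs1: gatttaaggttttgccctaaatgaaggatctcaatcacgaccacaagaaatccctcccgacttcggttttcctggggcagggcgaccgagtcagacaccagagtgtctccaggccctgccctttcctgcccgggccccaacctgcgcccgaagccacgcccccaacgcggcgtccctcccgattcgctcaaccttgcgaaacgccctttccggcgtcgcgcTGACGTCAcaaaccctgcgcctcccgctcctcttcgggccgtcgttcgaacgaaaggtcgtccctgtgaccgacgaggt
Cox8b: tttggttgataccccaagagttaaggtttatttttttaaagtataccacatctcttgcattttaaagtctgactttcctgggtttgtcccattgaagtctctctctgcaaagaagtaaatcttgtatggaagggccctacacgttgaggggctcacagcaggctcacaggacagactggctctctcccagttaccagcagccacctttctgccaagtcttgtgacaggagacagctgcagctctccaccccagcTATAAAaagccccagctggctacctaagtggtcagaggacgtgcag

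Promoter windows were found for 69 of the 81 genes and searched on both strands. The windows of Atp5a1, Atp5mpl, Cox4i1, Cox6a2, Cox6c, Ndufa2, Ndufb9, Ndufs1, Sdhc, Uqcrb, Uqcrc2 and Uqcrq were not used here. The ETS sequence occurred in 19 of 69 windows (27.5%), against 9.12% of all 27025 windows, and 4 of the 6 complex II genes with a window held it, namely Sdhb, Sdhd, Sdhaf1 and Sdhaf2. The NRF1 sequence occurred in 6 windows (8.7%, against 0.977% of all), namely those of Ndufaf4, Ndufaf5, Atp5k, Atp5g2, Cox6a1 and Uqcrc1. The YY1 sequence AAGATGGCG occurred in 5 windows (7.25%, against 1.49% of all), those of Ndufa9, Ndufc1, Ndufs4, Ndufs7 and Atp5j2. The CREB sequence TGACGTCA occurred in 3 windows (4.35%, against 1.88% of all), those of Ndufa10, Ndufb2 and Uqcrfs1. The shorter core TGACG, which lies within it, occurred in 28 windows (40.6%, against 21.0%). TATAAA occurred in 6 windows (8.7%, against 14.2%) and the SP1 sequence GGGGCGGGG in 11 (15.9%, against 11.6%). A match describes the letters of a window and is not a binding site. Of the 3 genes with the full CREB sequence, Ndufa10, the subunit of complex I with a kinase-like fold, had a cocaine minus saline difference averaged over genotypes of 0.057 ± 0.033 (SE, limma adjusted p = 0.859). For Uqcrfs1, the Rieske iron-sulfur protein of complex III, it was −0.044 ± 0.045 (adjusted p = 0.879), and for Ndufb2 it was 0.028 ± 0.029 (adjusted p = 0.887). The dimmer probe sets gave 0.23 for Ndufa10 and 0.011 for Ndufb2, and neither was called. The value for Ndufa10 thus depends on the probe set.

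Cocaine left the transcripts of the respiratory chain without a detected change after 1 hour. In mutant mice 0 of the 81 genes were called, beside 0.0473% of all probe sets, and in control mice 0 of 81, beside 0.11%. Averaged over genotypes it was 0 of 81, beside 0.221% of all probe sets. The median cocaine minus saline difference was 0.006 in mutant mice (all probe sets −0.003), 0.009 in control mice (all probe sets 0.001) and 0.001 averaged over genotypes (all probe sets 0). At an unadjusted p under 0.05, 7 genes lay past it in mutant mice (8.64%, against 6.95% of all probe sets), 0 in control mice (against 2.6%) and 2 for the average (2.47%, against 5.09%). A linear model without moderation also called 0 in each of the 3 comparisons. All saline animals are Arabic-numbered and the model holds a term for the numbering, so the difference averaged over genotypes comes from 12 Arabic-numbered animals. Roman-numbered ones bear only on its error.

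The absence of calls came with narrow intervals. For 76 of the 81 genes (93.8%) the 95% interval of the cocaine difference averaged over genotypes lay within a 1.2-fold change in either direction. That was the case for 48.1% of all probe sets, and for 80.7% of the 2646 above log2 10, which are nearer in brightness. The 5 genes with wider intervals were Sdhd, Sdhaf2, Atp5e, Cox6a2 and Ndufs5. In mutant mice alone it held for 62 genes (76.5%, against 27.4% of all probe sets and 60.3% of those above log2 10). In control mice it held for 71 (87.7%, against 32.1% and 72.3%).

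**Figure D3:**
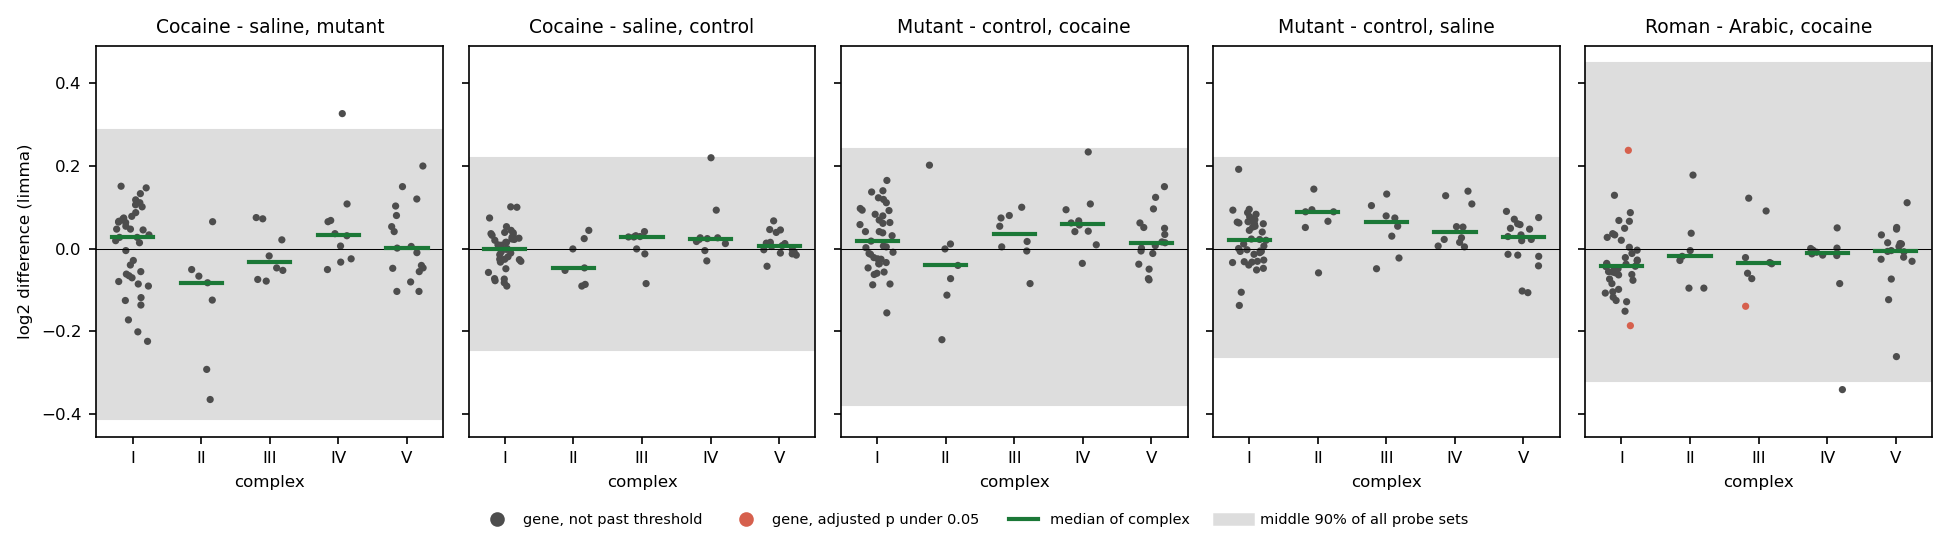
Log2 differences of the 81 genes by complex in 5 comparisons, fitted with limma. Each point is a gene, green bars are medians of a complex, red points have an adjusted p under 0.05, and the grey band holds the middle 90% of all probe sets. Red points appear only in the Roman minus Arabic panel, at Ndufaf7, Ndufs7 and Uqcrc1, and the complex II bar lies at −0.083 for cocaine minus saline in mutant mice.

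Within this flat picture, complex II, succinate dehydrogenase, had the lowest values. The enzyme oxidises succinate with its flavoprotein Sdha and its iron-sulfur protein Sdhb, and sits in the membrane through Sdhc and Sdhd, while Sdhaf2 attaches the flavin to Sdha. Cocaine minus saline in mutant mice was below 0 for 6 of the 7 genes, with a median of −0.083, and below 0 for 5 of 7 in control mice, with a median of −0.047. Averaged over genotypes it was below 0 for 7 of 7, with a median of −0.06. Of all 81 genes, 38 were below 0 in mutant mice, 36 in control mice and 40 averaged over genotypes. The mean over the 7 genes lay between −0.066 and −0.027 in the 6 mutant cocaine arrays, against 0.038, 0.093 and 0.136 in the 3 mutant saline arrays. In control mice it lay between −0.075 and 0.04 in the 6 cocaine arrays, against −0.035, −0.016 and 0.116 in the 3 saline arrays. The mutant groups did not overlap and the control groups did. Of all single probe sets, 4.35% did not overlap in mutant mice and 2.28% in control mice, and no such share was computed for means over genes.

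Sdhd, a membrane anchor, had the lowest difference of all 81 genes in mutant mice. Its 6 mutant cocaine arrays lay between 8.985 and 9.574 with a median of 9.392, against 9.67, 9.93 and 9.61 in the mutant saline arrays. The 6 control cocaine arrays lay between 9.41 and 9.71 with a median of 9.61, against 9.55, 9.45 and 9.79 in the control saline arrays. The mutant groups did not overlap and the control groups did. The difference was −0.37 ± 0.13 in mutant mice (SE, limma unadjusted p = 0.0105, adjusted p = 0.66) and −0.001 ± 0.126 in control mice (adjusted p = 1). Without mutant cocaine replicate 5, the lowest array, it was −0.32 ± 0.10 in mutant mice (adjusted p = 0.157). A second, dimmer Sdhd probe set, whose suffix marks probes that may match other sequences, gave −0.021 in mutant mice, so the difference rests on 1 of 2 probe sets.

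Sdhaf2 had differences of the same sign on both of its probe sets. The 6 mutant cocaine arrays lay between 8.59 and 9.00 with a median of 8.71, against 8.92, 9.01 and 8.96 in the mutant saline arrays. A single Roman-numbered cocaine animal at 9.00 overlapped the saline range. The difference was −0.29 ± 0.10 in mutant mice (SE, limma adjusted p = 0.66) and −0.09 ± 0.10 in control mice (adjusted p = 1), and the dimmer probe set gave −0.20 and −0.057. Averaged over genotypes it was −0.19 ± 0.07 (adjusted p = 0.859). A fit of the 12 Arabic-numbered arrays alone gives the same estimate by construction, with an SE of 0.053 and an adjusted p of 0.0763, the smallest of any of the 81 genes in any genotype or cocaine comparison under any setting tried, and 3.39% of all probe sets were called there. Without mutant cocaine replicate 5 the adjusted p was 0.0909, 0 of 81 genes were called and 2.86% of all probe sets were.

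Sdhb lay between 11.91 and 12.01 in mutant cocaine arrays, against 12.04, 12.15 and 11.99 in mutant saline arrays, with a difference of −0.13 ± 0.06 (SE, limma adjusted p = 0.66). Sdha lay between 11.54 and 11.77 in mutant cocaine arrays, against 11.74, 11.82 and 11.73 in mutant saline arrays, with a difference of −0.051 ± 0.060 (adjusted p = 0.805). Both pairs of groups overlapped. A second Sdha probe set of near equal brightness (11.58 against 11.68) gave −0.225 in mutant mice and −0.084 in control mice. Sdhc had a difference of −0.067 ± 0.060 in mutant mice (adjusted p = 0.739), and −0.132 on its dimmer probe set. The assembly factors Sdhaf4 and Sdhaf1 had −0.083 ± 0.076 and 0.065 ± 0.114, and Sdhaf1 had 0.032 ± 0.095 without mutant cocaine replicate 5. None of these differences passed the threshold.

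**Figure D4:**
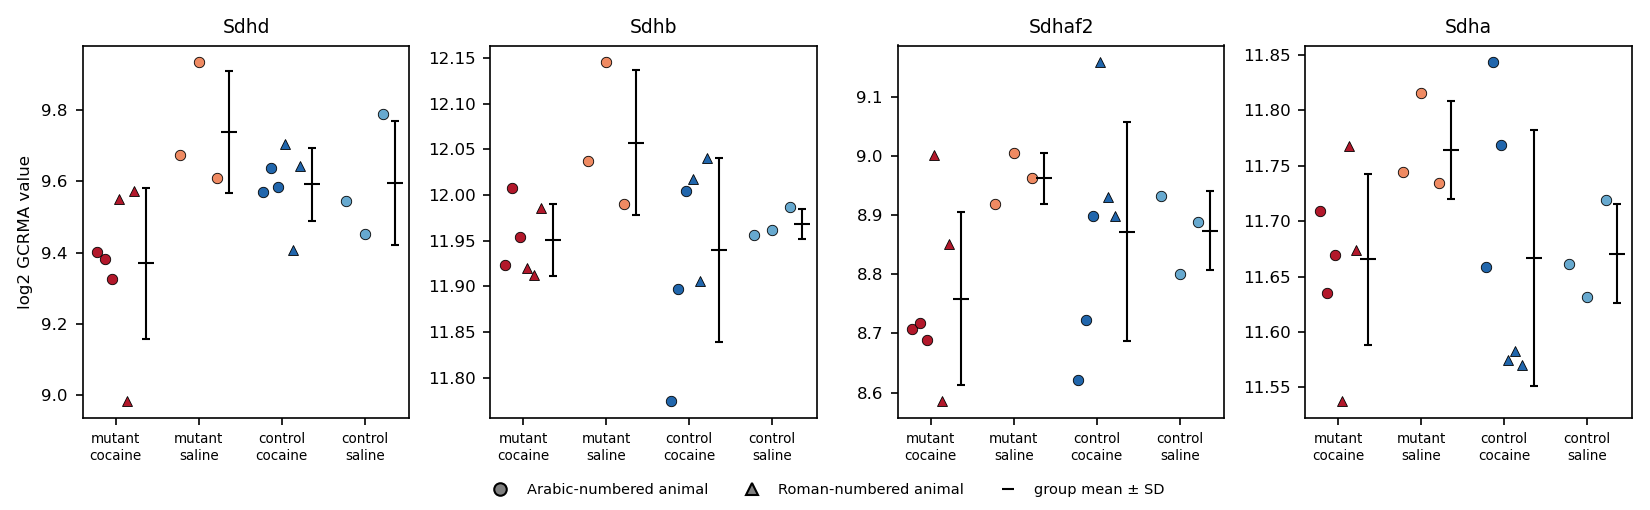
Log2 GCRMA values of Sdhd, Sdhb, Sdhaf2 and Sdha per array in mutant cocaine, mutant saline, control cocaine and control saline animals, with group means and SD. Circles are Arabic-numbered and triangles Roman-numbered animals. For Sdhd all 6 mutant cocaine arrays lie below all 3 mutant saline arrays, the lowest being replicate 5 at 8.985, and the other 3 genes overlap.

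The other genes with the smallest p in the cocaine comparisons were single members of other complexes. In mutant mice Atp5c1, the gamma subunit of the ATP synthase that turns within its head, had a difference of −0.10 ± 0.04 (limma adjusted p = 0.66). Ndufs1, the large iron-sulfur subunit of complex I, had −0.17 ± 0.07 and Ndufaf7, a methyltransferase that assists assembly of complex I, had −0.20 ± 0.09, both with an adjusted p of 0.66. In control mice Cox6c (0.09 ± 0.05), Ndufb10 (−0.08 ± 0.05), Cox6a2 (0.22 ± 0.16), Uqcrc2 (−0.09 ± 0.07) and Ndufa3 (−0.08 ± 0.06) led by p, each with an adjusted p of 1. Atp5h had 0.08 ± 0.04 and Sdhb −0.09 ± 0.04 averaged over genotypes (both adjusted p = 0.859). The other Atp5h probe set gave −0.033 there, and the other Cox6c probe set −0.011 in control mice. Cocaine and saline arrays of mutant mice did not overlap for 3 of 81 genes (3.7%, against 4.35% of all probe sets in either direction). They were Ndufa8, Sdhd and Uqcrc1, all lower after cocaine, with Uqcrc1 separated only beyond the digits given here. Of all 12674 probe sets, 324 were lower and 227 higher without overlap. In control mice they did not overlap for 0 of 81 (against 2.28%).

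Mutant and control mice had respiratory chain transcripts at near equal levels. After cocaine 0 of 81 genes were called, after saline 0 of 81 and averaged over treatments 0 of 81, beside 0% of all probe sets in each of the 3 comparisons. The median mutant minus control difference was 0.017 after cocaine (all probe sets 0.008), 0.033 after saline (all probe sets 0.014) and 0.029 averaged (all probe sets 0.011). At an unadjusted p under 0.05 there were 11 genes after cocaine (13.6%, against 11.6% of all probe sets), 1 after saline (1.23%, against 2.76%) and 7 for the average (8.64%, against 7.13%), and the linear model without moderation called 0 in each. For 78 of the 81 genes the 95% interval of the averaged difference lay within a 1.2-fold change (against 55.8% of all probe sets), the exceptions being Cox6a2, Ndufs5 and Sdhaf1. It was so for 72 genes after cocaine (against 42.7%) and 68 after saline (against 25.6%). Among probe sets above log2 10 the shares were 85.2% for the average, 74.3% after cocaine and 61.5% after saline. Within the numbering series, the median difference after cocaine was 0.027 over the 6 Roman-numbered arrays and 0.04 over the 6 Arabic-numbered cocaine arrays, with 0 genes called in either.

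Complex IV was the complex with a common sign on the brightest probe sets. All 10 genes had a mutant minus control difference above 0 after saline (median 0.039) and averaged over treatments (median 0.044). After cocaine it was 9 of 10 (median 0.06), the exception being Cox6c. Above 0 were also 56 of the 81 genes and 6977 of 12674 probe sets after saline, and 53 and 6932 averaged. The saline medians of complexes II and III, 0.089 and 0.064, were higher than that of complex IV. The mean over the 10 genes was −0.009, 0.014 and 0.028 in mutant saline arrays, against −0.08, −0.029 and −0.024 in control saline arrays. After cocaine it lay between −0.031 and 0.13 in mutant arrays, against −0.091 to 0.081 in control arrays, and the highest mutant array was replicate 5, with 0.086 next. The saline groups did not overlap and the cocaine groups did. Of all single probe sets 11.7% did not overlap after saline, a share that is not a reference for a mean over 10 genes. Cox8a, the common form of the smallest cytochrome oxidase subunit, had the smallest p of the complex. It lay between 11.73 and 11.87 in the 6 mutant cocaine arrays with a median of 11.76, against 11.56 to 11.78 with a median of 11.73 in the 6 control cocaine arrays. After saline it was 11.83, 11.87 and 11.75 in mutant mice, against 11.70, 11.71 and 11.63 in control mice. The saline groups did not overlap and the cocaine groups did. The averaged difference was 0.12 ± 0.04 (SE, limma unadjusted p = 0.00795, adjusted p = 0.679), and the other Cox8a probe set gave 0.13. Cox6c, a subunit found in all tissues, had 0.11 ± 0.06 after saline (adjusted p = 1) on its brighter probe set and −0.16 on the other, so its sign depends on the probe set.

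After cocaine, Atp5md, a small membrane subunit of the ATP synthase, had the smallest p of the 81 genes. It lay between 13.13 and 13.33 in mutant cocaine arrays with a median of 13.22, against 12.99 to 13.17 with a median of 13.11 in control cocaine arrays. The ranges overlapped, and the difference was 0.12 ± 0.04 (SE, limma adjusted p = 0.427), or 0.101 without mutant cocaine replicate 5. It was 0.163 within the Roman-numbered and 0.085 within the Arabic-numbered arrays. Subunits of complex I followed with the same adjusted p, namely Ndufb9 (0.12 ± 0.04), Ndufa13 (0.12 ± 0.04), Ndufv1 (0.14 ± 0.05) and Ndufv3 (0.17 ± 0.07). Mutant cocaine replicate 5 was the highest mutant cocaine array for Atp5md and each of these. Without it the differences were 0.082 for Ndufb9, 0.079 for Ndufa13, 0.086 for Ndufv1 and 0.092 for Ndufv3. Over all arrays, the other probe sets gave 0.032 for Ndufb9, and −0.043 and 0.111 for Ndufv1. Uqcr10 of complex III (0.11 ± 0.05) and Ndufb2 of complex I (0.057 ± 0.025) came among the first for the averaged difference, both with an adjusted p of 0.679. The dimmer Uqcr10 probe sets gave −0.066 and 0.067, and the dimmer Ndufb2 probe set 0.048. After saline Uqcrh (0.08 ± 0.04), Ndufb10 (−0.11 ± 0.05) and Uqcrc1 (0.10 ± 0.05) were next to Cox8a and Cox6c, each with an adjusted p of 1.

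Mutant and control arrays after saline did not overlap for 12 of 81 genes (14.8%, against 11.7% of all probe sets in either direction). All 12 were higher in mutant mice on their brightest probe set, while of all 12674 probe sets 911 were higher and 578 lower without overlap. They were Ndufa2, Ndufa6, Ndufa7 and Ndufv3 of complex I, Sdha and Sdhb of complex II, Uqcr10 and Uqcrh of complex III, Cox6a2 and Cox8a of complex IV, and Atp5a1 and Atp5o of complex V. After cocaine, with 6 arrays a group, it was 0 of 81 (against 0.181%). The sign after saline depended on the probe set for some of the 12 genes. A dimmer probe set gave a mutant minus control difference of −0.255 for Atp5a1, −0.105 for Atp5o and −0.15 for Uqcr10. All probe sets of Ndufa7, Sdha and Cox8a stayed above 0. The saline comparison of genotypes and the cocaine comparison within mutant mice share the 3 mutant saline arrays. For complex II the median was 0.089 for mutant minus control after saline and −0.083 for cocaine minus saline in mutant mice. The 4 measured endothelial markers had a median of 0.287 for mutant minus control after saline (0.061 to 0.459, 0 called), and their part in the result was not tested.

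No gene of the chain passed the threshold for a cocaine response that depends on genotype. The interaction (the response of mutant mice minus that of control mice) called 0 of 81 genes, beside 0% of all probe sets, with a median of 0.001 (all probe sets −0.014), and the model without moderation also called 0. At an unadjusted p under 0.05 there were 2 genes (2.47%, against 2.68% of all probe sets), namely Sdhd at −0.36 ± 0.17 and Ndufb10 at 0.15 ± 0.06 (SE, both limma adjusted p = 0.992). Cox6c (−0.14 ± 0.07), Atp5c1 (−0.11 ± 0.05) and Ndufb6 (0.20 ± 0.10) came next, with the same adjusted p. The other probe sets of Sdhd, Cox6c and Ndufb6 gave −0.024, 0.224 and −0.006 for the interaction. The interval lay within a 1.2-fold change for 50 of 81 genes (against 13.7%, and 41.7% above log2 10). The interaction is thus known less precisely than the averaged effects.

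Differences past the threshold appeared between the numbering series of the animals. Among cocaine arrays, Roman minus Arabic, 3 of 81 genes were called, 1 higher (beside 2.54% of all probe sets) and 2 lower (beside 3.62%), or 6.16% of all probe sets in either direction. The median difference was −0.022 over the 81 genes and −0.031 over all probe sets. At an unadjusted p under 0.05 there were 16 genes (19.8%, against 24.4% of all probe sets). The interval lay within a 1.2-fold change for 73 (90.1%, against 37%, and 69.1% above log2 10). Uqcrc1, a core protein of complex III, was lower in Roman-numbered animals. It was 11.33, 11.24 and 11.31 in mutant Roman arrays against 11.49, 11.48 and 11.41 in mutant Arabic arrays, and 11.35, 11.33 and 11.30 in control Roman arrays against 11.36, 11.46 and 11.50 in control Arabic arrays. The series did not overlap in either genotype, and the difference was −0.14 ± 0.04 (SE, limma adjusted p = 0.0417). It was the single gene of 81 whose 6 Roman and 6 Arabic cocaine arrays did not overlap (1.23%, against 1.84% of all probe sets).

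Ndufs7, an iron-sulfur subunit of complex I close to the site of ubiquinone reduction, was also lower. It was 12.52, 12.71 and 12.42 in mutant Roman arrays against 12.75, 12.71 and 12.73 in mutant Arabic arrays, and 12.37, 12.46 and 12.56 in control Roman arrays against 12.54, 12.74 and 12.71 in control Arabic arrays. The ranges overlapped in both genotypes. The difference was −0.19 ± 0.05 (SE, limma adjusted p = 0.0433), and a second probe set gave −0.20 ± 0.04 (adjusted p = 0.0118). Ndufaf7 was higher, at 8.36, 8.15 and 8.34 in mutant Roman arrays against 8.00, 8.08 and 7.93 in mutant Arabic arrays, and 8.34, 8.43 and 8.43 in control Roman arrays against 8.18, 8.24 and 8.18 in control Arabic arrays. Within each genotype the series did not overlap, and the difference was 0.24 ± 0.07 (adjusted p = 0.0499). Ndufb3 (−0.15 ± 0.05, adjusted p = 0.0744) and Atp5e (−0.26 ± 0.09, adjusted p = 0.105) came next and did not pass. A dimmer Ndufb7 probe set, besides, was called at −0.19 ± 0.05 (adjusted p = 0.0399).

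The number of genes called between series turned on single arrays. Without mutant cocaine replicate 5 it was 22 of 81, 7 higher (beside 13.9% of all probe sets) and 15 lower (beside 15.9%), and the 22 included the 3 genes above. That is 27.2% of the 81 genes, below the 29.8% of all probe sets in the same fit. Without control cocaine replicate 1 it was 5. It was 2 without mutant saline replicate 1 or control saline replicate 2, and 1 without mutant saline replicate 3, control cocaine replicate 6 or control saline replicate 3. In the other 11 of 18 such fits, without mutant cocaine replicate 1, 2, 3, 4 or 6, mutant saline replicate 2, control cocaine replicate 2, 3, 4 or 5, or control saline replicate 1, it was 0. Atp5k, a small subunit of the ATP synthase membrane part, shows the weight of replicate 5. It was 12.42, 12.90 and 12.40 in mutant Roman arrays against 12.55, 12.67 and 12.63 in mutant Arabic arrays, and 12.25, 12.39 and 12.39 in control Roman arrays against 12.47, 12.58 and 12.60 in control Arabic arrays. Every Roman array but replicate 5, at 12.90, lay below every Arabic array. The difference was −0.12 (adjusted p = 0.289) with replicate 5 and −0.21 ± 0.04 (limma adjusted p = 0.000673) without it, and Atp5k was named after its values were seen.

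The 22 genes spread over all 5 complexes. In complex I there were 4 higher and 9 lower of 39, in complex II 1 and 1 of 7, in complex III 1 and 2 of 8, in complex IV 0 and 2 of 10, and in complex V 1 and 1 of 17. The higher ones were Sdhaf2 (0.24), Ndufaf7 (0.26), Ndufs1, Ndufs4, Ndufab1, Uqcrfs1 and Atp5b, the catalytic beta subunit of the ATP synthase (0.098). The lower ones included Cox6a2 (−0.40), Ndufs7 (−0.22), Ndufa5 (−0.17), Ndufv3 (−0.17), Ndufa7 (−0.17), Sdha (−0.13) and Uqcrc1 (−0.13). With replicate 5 included, the difference was 0.051 for Atp5b, −0.099 for Ndufv3 and −0.105 for Ndufa5, and none of these was called. For Sdha the sign depends on the probe set, since over all arrays the brighter gave −0.096 and the other 0.155. The actin 3′ minus 5′ difference averaged 2.3 ± 1.1 in mutant Roman arrays against 2.33 ± 0.16 in mutant Arabic arrays, and 1.73 ± 0.17 in control Roman arrays against 2.43 ± 0.19 in control Arabic arrays (SD, n = 3 each). The mutant Roman mean rests on replicate 5, since those arrays were at 1.68, 3.59 (replicate 5) and 1.63. Every Roman array but replicate 5 lay between 1.57 and 1.91, below every Arabic cocaine array, at 2.14 to 2.55. With the actin difference as a term in the model, 2 genes were called between series. All Roman arrays are cocaine arrays, and the numbering cannot be told apart from anything else that the Roman-numbered animals share.

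**Figure D5:**
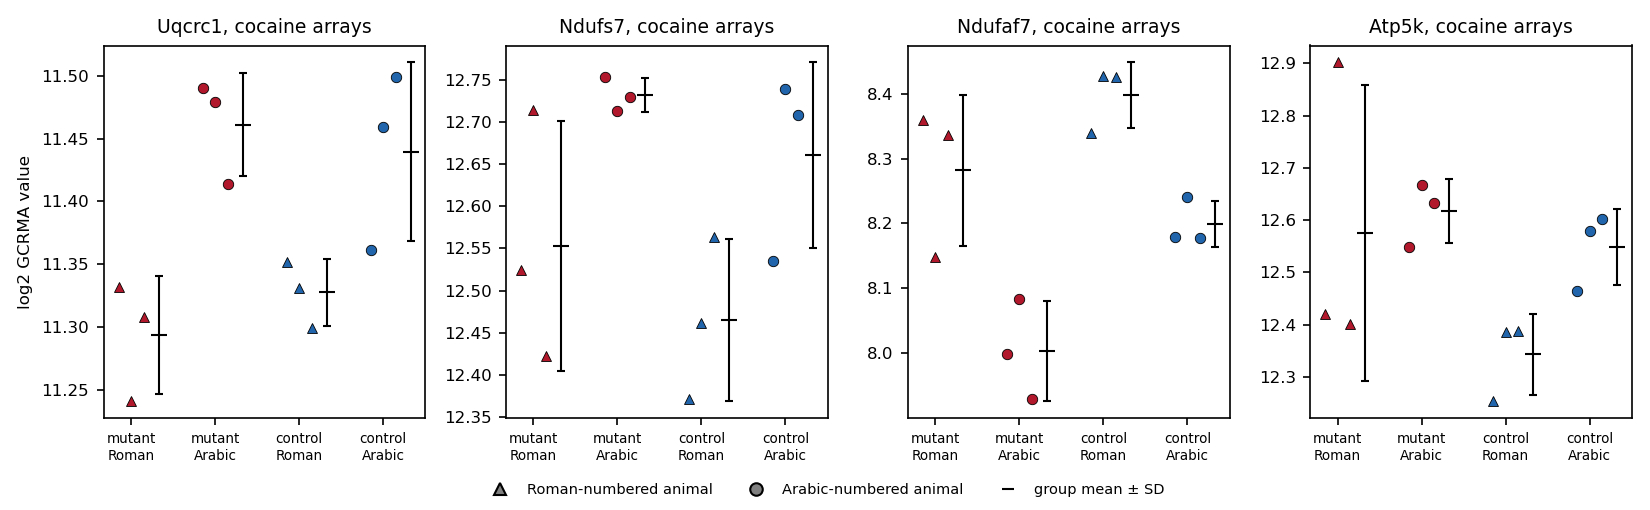
Log2 GCRMA values of Uqcrc1, Ndufs7, Ndufaf7 and Atp5k in cocaine arrays, with Roman-numbered animals (triangles) left of Arabic-numbered animals (circles) for mutant and then control mice, and bars for the mean and SD of 3 arrays. Uqcrc1 is lower and Ndufaf7 higher in Roman animals of both genotypes, and the mutant Roman array at 12.90 for Atp5k is replicate 5.

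Several genes can be checked on more than 1 probe set. Of the 81 genes, 42 had at least 2 kept probe sets and 39 had 1, and 0 of the 141 kept probe sets was called in the 7 genotype and cocaine comparisons. Between series 1 was called higher and 4 lower, and 0 genes had probe sets called in opposite directions. A further 8 probe sets carried several symbols, such as those shared by Ndufb4 and its copies or by Ndufs5 and a pseudogene, and were left out because their signal cannot be assigned to 1 gene. The genes lie on 19 chromosomes, with 2 on X and at most 7 on any other.

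Lists of genes around the chain had no called member for cocaine or genotype. Of the citric acid cycle list 12 of 13 genes were measured, and 0 were called in any cocaine or genotype comparison, with a median cocaine minus saline difference of −0.017 averaged over genotypes. The same held for 8 of 11 measured genes of cytochrome c, ubiquinone synthesis and electron transfer flavoproteins (median 0.021), for 19 of 26 further assembly factors (median 0.037) and for 13 of 14 carriers, pores and import proteins (median −0.029). Of the regulators of mitochondrial biogenesis, 11 of 12 were measured and 0 were called (median −0.028), with differences between −0.414 and 0.173 for mutant minus control after saline, where the 81 chain genes lay between −0.138 and 0.192. Ppargc1a, the coactivator that drives mitochondrial biogenesis, averaged 8.45 ± 0.25 in mutant cocaine mice against 8.52 ± 0.10 in mutant saline mice, and 8.40 ± 0.13 in control cocaine mice against 8.58 ± 0.13 in control saline mice. Cycs, cytochrome c, averaged 13.06 ± 0.07 in mutant cocaine mice against 12.88 ± 0.21 in mutant saline mice, and 13.09 ± 0.10 in control cocaine mice against 13.05 ± 0.08 in control saline mice.

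Glycolysis, with 13 of 17 genes measured, was not called either for cocaine (median −0.001 averaged over genotypes) or genotype. Between series it had 2 genes lower in Roman-numbered animals, the neuronal enolase Eno2 (−0.13 ± 0.03, limma adjusted p = 0.0155) and the aldolase Aldoa (−0.12 ± 0.03, adjusted p = 0.0459), and a median of −0.104. Gabpb1, the partner subunit of the ETS factor Gabpa in NRF2, was lower too (−0.33 ± 0.09, adjusted p = 0.0457), on a dim probe set with a mean of 6.51. Gabpa itself had 0.18 ± 0.08 (adjusted p = 0.19). Of 7 measured medium spiny neuron markers 1 was lower between series, and 0 markers of any cell type listed were called for cocaine or genotype. The 7 microglial markers had a median of 0.217 for cocaine minus saline in mutant mice, and their part in the results was not tested.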

How the data were processed

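Per the submitters' processing notes, the authors made the deposited log2 values with GCRMA in R 2.4.1, with settings that are not stated. GCRMA corrects background from probe sequence, equalises array distributions and summarises each probe set, so a change in total signal is removed and dim genes are compressed. Of 22690 deposited probe sets, 64 controls were left out and 12674 above log2 4 in at least 3 arrays were kept. Genes were named from the platform annotation where a probe set had 1 symbol (11749 probe sets, with 406 of several and 519 of none). In limma 3.58.1 (R 4.3.3) each probe set got a linear model of group and numbering series, with a variance trend (13 residual degrees of freedom, 3.13 prior). Tests were two-sided and moderated, with p adjusted by Benjamini-Hochberg over all probe sets. The script was tested on simulated data. Each animal gave 1 array, and the titles call the arrays biological replicates. The number of arrays limits the precision. Named genes were, in each comparison, those called or else the first 5 by p, the 2 of highest signal per complex, the cytochrome oxidase isoforms, the Sdh genes and assembly factors. The members, the lists, the 1.2-fold bound and the promoters shown were chosen with earlier results of these data known. Alternatives changed blocks, terms, filters, test, weights, probe sets, scaling and arrays. The fit on Roman-numbered arrays alone was added after seeing the data. Positions and promoters are from RefSeq, GRCm38.p6.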

Additional observations from a re-analysis of the deposited data

Results flagged for a closer look

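In 66 checks of 26 named genes and 7 means over complexes or sets of them in the groups of 6 arrays, 4 arrays lay far from the rest of their group, and chance alone flags about 1 in 20 groups. Atp5h had its highest mutant cocaine value, 14.065, in replicate 5, against 13.88 for the next array and a group median of 13.845. Atp5c1 had its lowest control cocaine value, 12.715, in replicate 2, against 12.809 for the next array and a median of 12.815. Ndufa13 had its lowest control cocaine value, 12.769, in replicate 4, against 12.846 for the next array and a median of 12.858. Ndufv1 had its lowest control cocaine value, 11.565, in replicate 5, against 11.632 for the next array and a median of 11.634.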

How the results depend on the processing

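The count of 0 genes called in the 7 genotype and cocaine comparisons was the same in all 215 alternative results, over 32 settings. Over all probe sets, the averaged cocaine comparison called 0.221%, against 3.39% with Arabic-numbered arrays only and 2.86% without mutant cocaine replicate 5. The count of 3 genes called between numbering series was 0 in a fit of only the groups compared, 0 without the filter on dim probe sets, 1 in the ordinary linear model and 21 with array weights, and leaving out 1 array at a time gave 0 to 22. The cause was not tested. Cox6c turned sign as the mean of its probe sets, to −0.024 for mutant minus control after saline and to 0.04 for the interaction, since its 2 probe sets oppose each other. Of the results on single genes, 1150 kept their side of the threshold, 52 lost it and 4, all Ndufb3 between series, gained it. With the replicate number of the titles as a block, 0 genes were called in each of the 7 comparisons. Same-numbered arrays deviated together with a mean correlation of 0.0045 (−0.39 to 0.34 over 21 pairs), and 4 of 18 arrays were closest to their own number. A second block, of consecutive animal numbers, had a mean correlation of 0.036, with 5 of 18 arrays closest to their own block. With so few pairs these values cannot show whether the animals of a block share handling or litter. Neither block could be fitted for the series comparison, whose blocks lie within a series. Nearly all these genes lie far above background, and Cox6a2 is the dimmest.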

Other observations

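Without mutant cocaine replicate 5, Sdhaf2 was higher in Roman-numbered than in Arabic-numbered cocaine arrays (0.24 ± 0.06, SE, limma adjusted p = 0.00732), while its cocaine minus saline difference averaged over genotypes was −0.19 in the Arabic-numbered arrays. Sdhaf2 was named here after its values were seen.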
